A study of Macaca fascicularis with 21 samples.

Results

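HGF, PDGFA and PDGFB are secreted growth factors, and MET, PDGFRA and PDGFRB are the receptor tyrosine kinases that bind them. These 6 genes were chosen by name, as rows of the single-cell count table of cynomolgus monkey (Macaca fascicularis) embryos, to describe which annotated cell types held ligand transcripts and which held receptor transcripts. All 6 were found among the 30792 genes of the table. PDGFRB was stored under a numbered identifier and was matched through its gene ID. The table held 1453 cells of 21 embryos. The embryos were grown in vitro on Matrigel, a basement membrane gel, from blastocysts freed of their zona pellucida, and all groups shared this culture. The labels gave days 11, 12, 13, 14, 16 and 17 with 2, 5, 3, 4, 4 and 3 embryos, and no embryo was treated or genetically changed per the labels. The day stood under a developmental stage label for 16 embryos and under a culture stage label for 5. Per the labels, extra-embryonic cells were dissected away before digestion and single cells were picked into tubes, so cell numbers describe the cells that remained and were picked.

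HGF is made mainly by mesenchymal cells as an inactive precursor, is cut into its active form outside the cell, and acts on MET, which is typical of epithelia. PDGF ligands act as dimers: PDGF-A binds the alpha receptor, PDGF-B binds both receptors, and PDGF-C and PDGF-D are cut before they bind. In the early mouse embryo PDGFRA is a known marker of primitive endoderm and mesoderm, while PDGFRB is best known from mesenchyme and the cells around vessels.

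Counts came from the 3′ end of transcripts. They ranged from 3376 to 483669 per cell (median 61090.0) and from 2540816 to 11857191 per embryo, from 22 to 88 cells each. The 12 types that the authors assigned to these same cells were merged into 7 families, whose abbreviations are read here as epiblast (EPI, 304 cells), gastrulating cells (Gast, 83), amnion (AM, 82), trophoblast (TE, 380), primordial germ cells (PGC, 18), extraembryonic mesenchyme (EXMC, 485) and endoderm of visceral or yolk sac kind (VE/YE, 101). Marker genes were highest in their own family for 6 of 6 TE, 8 of 8 VE/YE, 5 of 6 EXMC, 5 of 7 AM and 4 of 5 PGC markers, but for 3 of 6 EPI markers and 1 of 6 Gast markers. Most Gast markers were therefore not highest in Gast at the family level. Their summed level had a median of 131 CPM in Gast, near 146 in PGC and 116 in VE/YE. It was 18.0 in EPI, 11.0 in AM, 3.00 in EXMC and 2.19 in TE. By these medians the Gast list set Gast apart from these 4 families but not from PGC and VE/YE. Its range in Gast, 28.5 to 390 CPM, still overlapped those of EPI (up to 70.9), AM (up to 58.1) and EXMC (up to 38.9). Only TE, at up to 15.1, lay below it. Counts of each family were summed within an embryo where it had at least 5 cells, which gave 14 EPI, 6 Gast, 6 AM, 3 PGC, 9 VE/YE, 19 EXMC and 16 TE sums. All 3 PGC sums came from day 16 and the Gast sums from days 14 and 16. Levels below are CPM (counts scaled to the same TMM-adjusted total) of these sums, as mean ± SD over embryos, and log2 differences carry their standard error.

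HGF transcripts were concentrated in EXMC, which held 90.8% of the 66985 HGF counts while it held 31.8% of all counts. The HGF level in EXMC was 1613 ± 656 CPM (n = 19), with a lowest embryo of 555, a median of 1684 and a highest of 3323. No sum of EPI, AM, PGC, VE/YE or TE reached the lowest EXMC sum, and EXMC was the family with the most HGF in all 19 embryos that had an EXMC sum. Gast was next with 276 ± 292 CPM (n = 6). Its 6 embryos stood at 2.89 and 54.9 CPM on day 14 and at 81.1, 593, 678 and 243 on day 16. The 2 highest of day 16 overlapped the EXMC range, but only that of day 17 (555 to 697 CPM). EXMC of day 16 ran from 1115 to 1684 CPM, and EXMC was above Gast in 5 of 5 embryos that held both. The remaining families lay close together, with mean HGF levels of 71.3 in PGC, 59.9 in AM, 55.2 in VE/YE, 43.2 in EPI and 42.3 in TE.

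**Figure D1:**
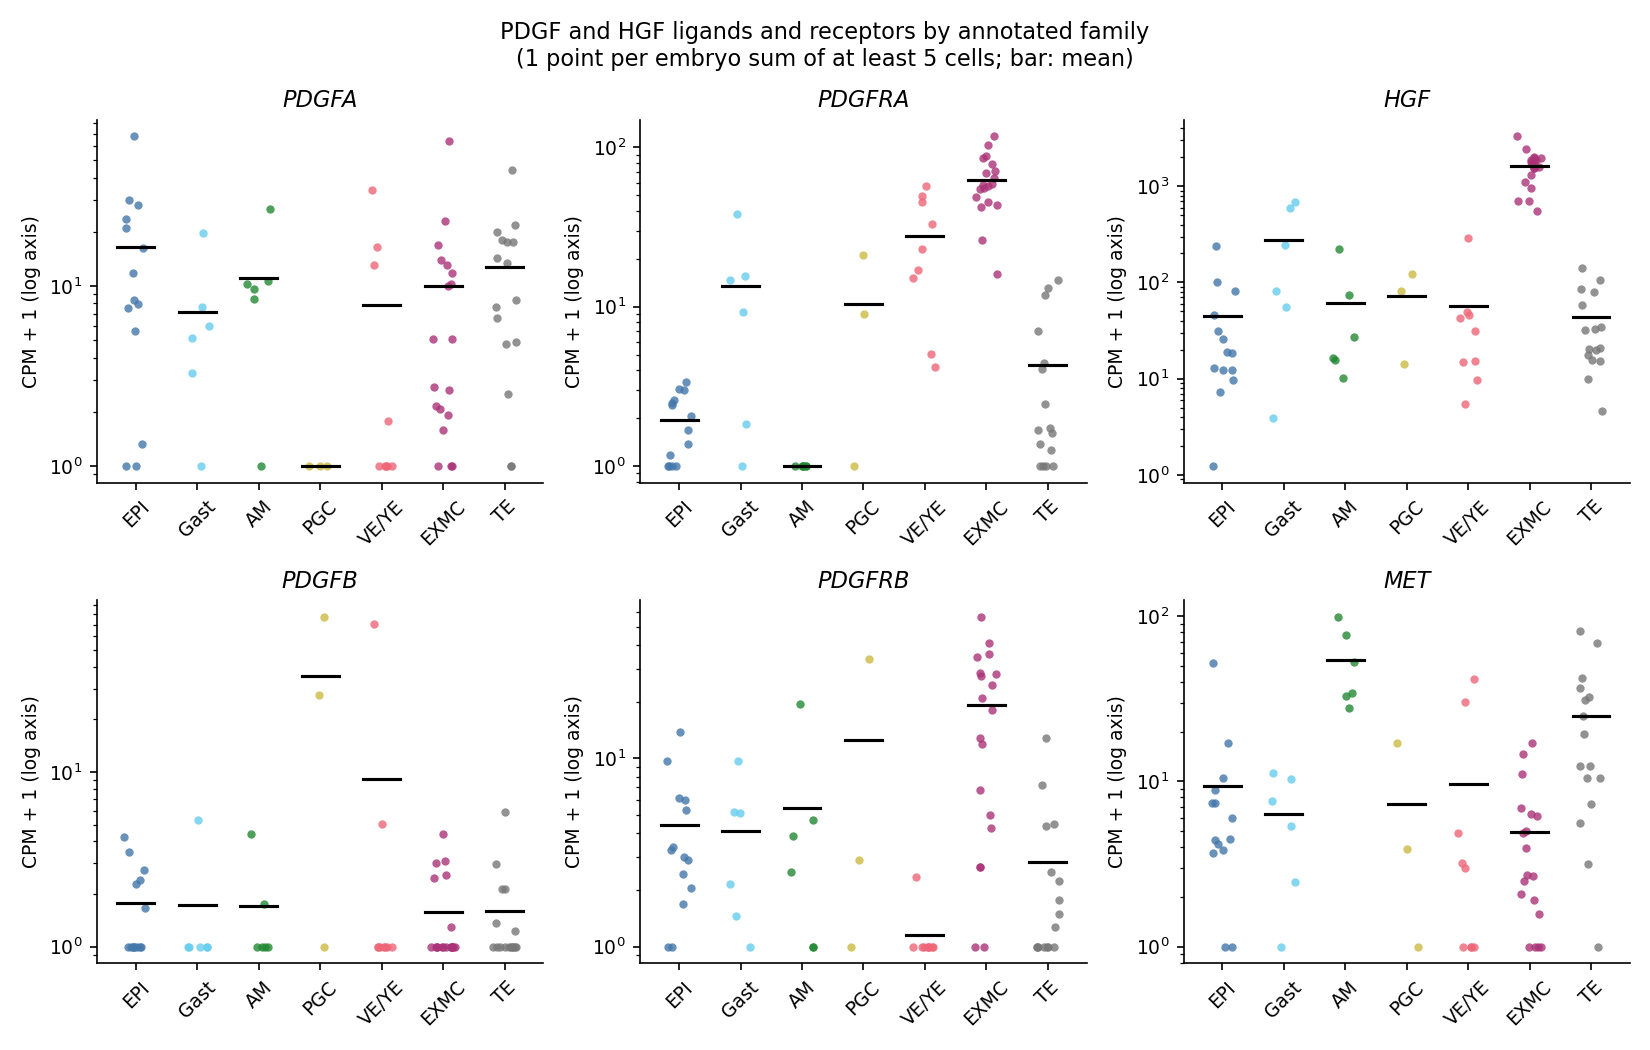
Level of each gene in the 7 annotated families, on a log axis as CPM + 1, with 1 point for each embryo sum of at least 5 cells and a bar at the mean. HGF and PDGFRA were highest in EXMC, MET was highest in AM (53.0 CPM) and TE (24.0), PDGFB was above 5 CPM in 3 sums only, and PDGFA was spread over all families but PGC.

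Over the 7 families, 5 of the 6 genes differed by the F-test of edgeR with the embryo as a block, where 60.6% of the 16253 genes tested did. The 5 were HGF (adjusted p = 1.69e-15), PDGFRA (9.55e-13), PDGFRB (4.49e-06), PDGFB (5.18e-06) and MET (7.85e-06), and PDGFA was not called (adjusted p = 0.244). Against EPI of the same embryos, EXMC had more HGF by 5.63 ± 0.54 log2 units (adjusted p = 2.55e-11), and 3 of the 6 genes were called in that comparison, where 30.6% of all genes were. HGF was higher in EXMC than in EPI in 13 of 13 embryos that held both, than in TE in 14 of 14, than in VE/YE in 9 of 9 and than in AM in 6 of 6. The step from EXMC down to Gast, its neighbour in the order of levels, was 3.04 ± 0.75 log2 units (adjusted p = 0.00769, with 6.89% of genes called). None of the lower steps in the order passed the test. Without the embryos of day 16 the step from EXMC to Gast was 5.23 log2 units at an adjusted p of 0.0688.

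HGF counts were not confined to EXMC when single cells were scored. A count was present in 98.4% of EXMC cells (95% exact interval 96.8 to 99.3), and also in 72.2% of PGC, 64.5% of TE, 62.7% of Gast, 58.5% of AM, 50.0% of EPI and 44.6% of VE/YE cells. After each cell was thinned to 20000 counts these shares were 97.9%, 53.8%, 33.5%, 43.9%, 31.7%, 23.9% and 20.3%. Cells of the same embryo are not independent, so these intervals describe the counting of cells alone. Relative to EXMC of the same embryo, the median HGF level was 1.58% in EPI, 1.47% in AM, 1.94% in VE/YE and 2.58% in TE. The median over the 6 EXMC markers (COL1A1, COL3A1, HAND1, LUM, DCN and POSTN) on the same measure was 2.73% in EPI, 3.62% in AM, 2.70% in VE/YE and 5.03% in TE. In these 4 families HGF was below the marker median, whereas it was above it in PGC (5.22% against 3.65%) and Gast (14.5% against 4.16%), and whether these counts came from the scored cells was not tested.

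PDGFA was spread over the families, and no step in the order of its levels passed the test. Mean levels were 15.5 ± 17.8 CPM in EPI (n = 14), 11.7 ± 10.9 in TE (n = 16), 10.1 ± 8.45 in AM (n = 6), 8.97 ± 14.6 in EXMC (n = 19), 6.82 ± 11.5 in VE/YE (n = 9) and 6.15 ± 6.61 in Gast (n = 6). Each of these 6 families had embryos at 0, and all overlapped. All 3 PGC sums were at 0, and 0 of 18 PGC cells had a PDGFA count, which by the floor of 3 counts allows a count in up to 16.7% of cells (exact 95% upper limit 18.5%). A PDGFA count was present in 27.6% of TE cells and 24.3% of EPI cells, against 12.2% of EXMC and 5.94% of VE/YE cells. The highest EPI sum, 66.9 CPM, was the only EPI sum of day 13.

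PDGFB was nearly absent, with 303 counts in 46 of the 1453 cells. The highest mean was in PGC, where the 3 sums stood at 26.6, 76.8 and 0 CPM. These rested on 94 counts in 4 of 18 cells, 58 of them in 1 cell. VE/YE had a further 94 counts, of which 93.6% lay in 1 cell, and 7 of its 9 embryos were at 0. EPI, Gast, AM, EXMC and TE had means below 1 CPM, between 0.570 and 0.772. PGC was higher than EPI by edgeR (adjusted p = 0.000221), the only call among the 6 genes in a comparison with 4.42% of genes called, and was higher in 2 of 3 embryos with the third at 0 in both. All 4 EPI sums of day 16 were at 0, so the fitted fold, which went from 8.92 down to 1.498 log2 units over the 6 other edgeR, DESeq2 and limma analyses, is not a measured size. All 6 called it (adjusted p up to 0.0118). A PDGFB count occurred in 22.2% of PGC cells (95% exact interval 6.41 to 47.6) and in 1.20% to 3.29% of cells of the other families. Among the 4 PGC cells with PDGFB, the PGC markers SOX17 and TFAP2C had a count in all 4, PRDM1 in 3, DPPA3 in 2 and NANOS3 in 1. Of the 7 endothelial markers, KDR, TIE1 and EGFL7 had a count in 2 of these cells, PECAM1 and TEK in 1, and CDH5 and CLDN5 in none. Of the blood markers, RUNX1 had a count in all 4, SPI1 and GATA1 in 1, and PTPRC and HBZ in none. The only PGC cells with TIE1 (2 of 18) and GATA1 (1) were among these 4, and the part of such cells in the PDGFB level was not tested.

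MET, the HGF receptor, was highest in AM and TE. The 6 AM embryos stood at 98.6 and 51.5 CPM on day 12 and at 33.3, 26.8, 32.0 and 75.8 on day 16, with a mean of 53.0 ± 28.7. TE reached 24.0 ± 23.4 CPM (n = 16), from 0 through a median of 14.9 to 80.7. These 6 AM sums, of days 12 and 16 only, lay above the highest EXMC sum of 16.0 CPM, whereas TE overlapped every family. In sums by annotation, of at least 3 cells, amnion was not above that level throughout. The amnion annotation E-AM stood at 99.2 and 52.6 CPM on day 12. It stood at 9.36 on day 13 and at 6.93 and 10.8 on day 14, in sums of 3 or 4 cells. On day 16, L-AM1 ran from 0 to 28.6 CPM and L-AM2 from 31.7 to 162. The lower group was VE/YE at 8.69, EPI at 8.42, PGC at 6.29, Gast at 5.35 and EXMC at 3.92 CPM. In these means EXMC, first for HGF, was last for MET. No step of MET within this lower group passed the edgeR test, and that from Gast to EXMC was 0.19 ± 0.77 log2 units (adjusted p = 0.925). The place of EXMC within the lower group was therefore not resolved.

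In the tests, AM had 3.64 ± 0.72 log2 units more MET than EXMC (adjusted p = 0.000202, 11% of genes called), and AM was higher in 6 of 6 embryos, but in sums of at least 10 cells the difference was not called (EXMC minus AM -1.97, adjusted p = 0.178). TE had 2.58 ± 0.54 more than EXMC (adjusted p = 9.50e-05), higher in 13 of 14 embryos, in a comparison with 28.7% of genes and 4 of the 6 genes called. MET was the only one of the 6 called in AM against EPI, where it was 2.68 ± 0.72 log2 units higher in AM (adjusted p = 0.0147, with 6.23% of genes called). That call was lost without the AM embryo of day 12 replicate 1 (adjusted p = 0.0640) or of day 16 replicate 4 (0.0915), and the difference was 1.05 (0.532) in sums of at least 10 cells, 2.30 (0.129) with developmental stage labels alone and 3.32 (0.129) without day 16. TE exceeded EPI by 1.62 ± 0.58 (adjusted p = 0.0202, 41.8% of genes called), a call lost without day 12 replicate 2 (0.0682), day 13 replicate 2 (0.0678) or day 17 replicate 1 (0.0556) and at 1.21 (0.225) with developmental stage labels alone. AM and TE, neighbours in the order, differed by 1.06 ± 0.75 (adjusted p = 0.350), an interval of -0.41 to 2.53. The step from TE to VE/YE was 1.95 ± 0.74 (adjusted p = 0.0460, 23.2% of genes called), and it was lost without any 1 of 15 of the 21 embryos (adjusted p 0.0511 to 0.124), that is without any but day 11 replicate 1, day 12 replicate 3, day 14 replicates 3 and 4, day 16 replicate 1 and day 17 replicate 3. It was also lost in 5 of the 8 other analyses: at 0.99 (0.584) in sums of at least 10 cells, 1.74 (0.0875) without TMM, 1.76 (0.121) with developmental stage labels alone, 1.63 (0.218) without day 16 and 1.27 (0.180) without the embryo block.

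A MET count was present in 37.8% of AM cells (95% exact interval 27.3 to 49.2) and 31.8% of TE cells (27.2 to 36.8), against 9.28% of EXMC cells (6.85 to 12.2). In cells thinned to 20000 counts the shares were 21.7%, 19.0% and 5.50%. Single cells weighed on some means: 1 EPI cell held 45.9% of the EPI counts of MET and 1 VE/YE cell 39.5% of those of VE/YE, whereas no AM cell held over 11.8%.

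PDGFRA, the alpha receptor, was highest in EXMC and next in VE/YE. EXMC had 61.3 ± 24.9 CPM (n = 19), from 15.0 through a median of 56.8 to 117, and held 82.7% of all PDGFRA counts. VE/YE had 26.8 ± 19.6 CPM (n = 9), from 3.16 through 22.1 to 56.6. EXMC exceeded VE/YE in 9 of 9 embryos, although the 2 ranges overlapped and the difference of 1.55 ± 0.68 log2 units was not called (adjusted p = 0.107). The other families followed with 12.5 in Gast, 9.38 in PGC, 3.33 in TE and 0.944 in EPI. AM had no PDGFRA count in any of its 6 sums, so EXMC was at least 109-fold and VE/YE at least 47.8-fold higher than a floor of 3 counts over all AM sums. Of all 82 AM cells, 2 had a count. Without day 16 the difference between EXMC and AM had an adjusted p of 0.0701.

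Against EPI, PDGFRA was higher by 6.18 ± 0.70 log2 units in EXMC (adjusted p = 2.93e-10, higher in 13 of 13 embryos) and by 4.63 ± 0.79 in VE/YE (8.41e-06, higher in 7 of 7 embryos, with 26.5% of genes called). TE fell below EXMC by 4.75 log2 units (standard error 0.66, adjusted p = 5.65e-08, in 14 of 14 embryos). No neighbours in the order of PDGFRA levels differed by the test. PDGFRA was present in 56.7% of EXMC, 40.6% of VE/YE and 26.5% of Gast cells, against 4.93% of EPI, 8.42% of TE and 2.44% of AM cells. Thinned to 20000 counts, these were 47.9%, 34.8%, 22.7%, 2.02%, 3.80% and 0%.

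PDGFRB, the beta receptor, was also highest in EXMC, at 18.2 ± 15.9 CPM (n = 19), from 0 in 2 embryos through a median of 17.2 to 55.7. PGC followed with 11.5 CPM, of which 1 embryo gave 32.6 and the others 1.90 and 0. AM had 4.42, EPI 3.40, Gast 3.10 and TE 1.81 CPM. VE/YE, second for PDGFRA, was last for PDGFRB at 0.149 CPM, with 2 counts in 75 cells and 8 of 9 embryos at 0. The beta receptor was lower in VE/YE than in EXMC by 5.87 ± 1.17 log2 units (adjusted p = 0.000107, 18.9% of genes called) and than in EPI by 4.08 ± 1.22 (0.00905). In sums of at least 10 cells neither was called (adjusted p = 0.0535 and 0.202), and by limma on mean log2 values the second was not (0.114). With 2 counts in VE/YE, these fitted folds are not measured sizes. Over the 8 other analyses, EXMC minus VE/YE ran from 1.41 to 7.97 log2 units and VE/YE minus EPI from -7.18 to -0.55. No neighbours in the order of PDGFRB levels differed by the test.

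EXMC exceeded EPI in PDGFRB by 1.79 ± 0.68 log2 units (adjusted p = 0.0389), but it was higher in only 7 of 13 embryos, with 1 equal, and it was the highest family in 12 of 19 embryos. TE fell below EXMC by 3.72 (standard error 0.71, adjusted p = 2.26e-05) and below EPI by 1.93 (standard error 0.74, adjusted p = 0.0296). The call of EXMC over EPI was lost without any 1 of 7 embryos (day 11 replicate 2, the 4 of day 16 and day 17 replicates 1 and 2, adjusted p 0.0560 to 0.0892), and without all of day 16 the difference was 0.79 (0.513). TE against EPI was lost without day 12 replicate 2 (0.0808) or day 14 replicate 4 (0.0622), and was -0.99 (0.239) without the embryo block. A PDGFRB count was present in 38.8% of EXMC cells and in 3.96% of VE/YE cells, at 27.0% and 1.45% after thinning. PDGFRA and PDGFRB were found together in 115 of 485 EXMC cells. Among EXMC cells with PDGFRA, 41.8% also had PDGFRB, against 34.8% of the others, with a median of 75520 counts per cell against 37457.5.

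**Figure D2:**
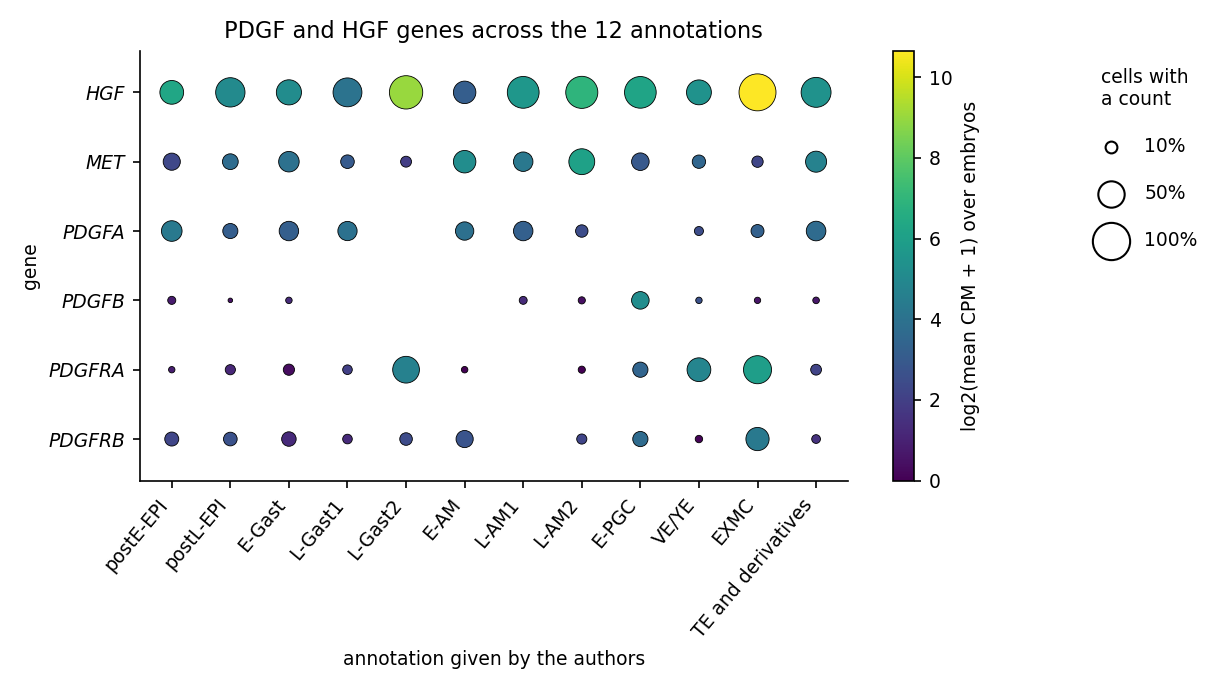
The 6 genes across the 12 types as the authors annotated them. The area of a dot grows with the share of cells with a count, its colour is log2(mean CPM + 1) over embryo sums of at least 3 cells, and no dot means no count. HGF and PDGFRA stood out in L-Gast2 beside EXMC, and MET in L-AM2.

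L-Gast2 cells held HGF at 137, 773, 834 and 301 CPM in the 4 embryos of day 16, while L-Gast1 cells of the same embryos stood at 10.3, 11.2, 10.1 and 30.7. The groups did not overlap, and L-Gast2 was higher by 4.76 ± 0.61 log2 units by edgeR (adjusted p = 2.03e-05, with 2.44% of 6189 genes called). HGF was the only one of the 6 genes that passed the filter on low counts in this comparison. The L-Gast1 sums held 15 HGF counts against 2165 in L-Gast2, so HGF passed this filter by its L-Gast2 level. The call therefore adds no separate support to the levels, and the size of the difference rests on few counts. L-Gast2 had PDGFRA at 24.5, 19.0, 42.8 and 10.5 CPM in these embryos, against 0, 0, 12.2 and 0 in L-Gast1, and 18 of 35 L-Gast2 cells against 1 of 15 L-Gast1 cells had a PDGFRA count. None of the 35 L-Gast2 cells had a PDGFA count, which by the floor of 3 counts allows a count in up to 8.57% of cells (exact 95% upper limit 10.0%), whereas 4 of 15 L-Gast1 cells had one.

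HGF in L-Gast2 amounted to 36.6% (median of 4 embryos) of its level in EXMC of the same embryo. The 6 EXMC markers ranged from 2.47% to 585% on this measure, with a median of 4.42%, and the highest was HAND1, a transcription factor of extraembryonic mesoderm and amnion. The share of L-Gast2 cells that carried the EXMC markers was not tested as a source of this HGF.

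**Figure D3:**
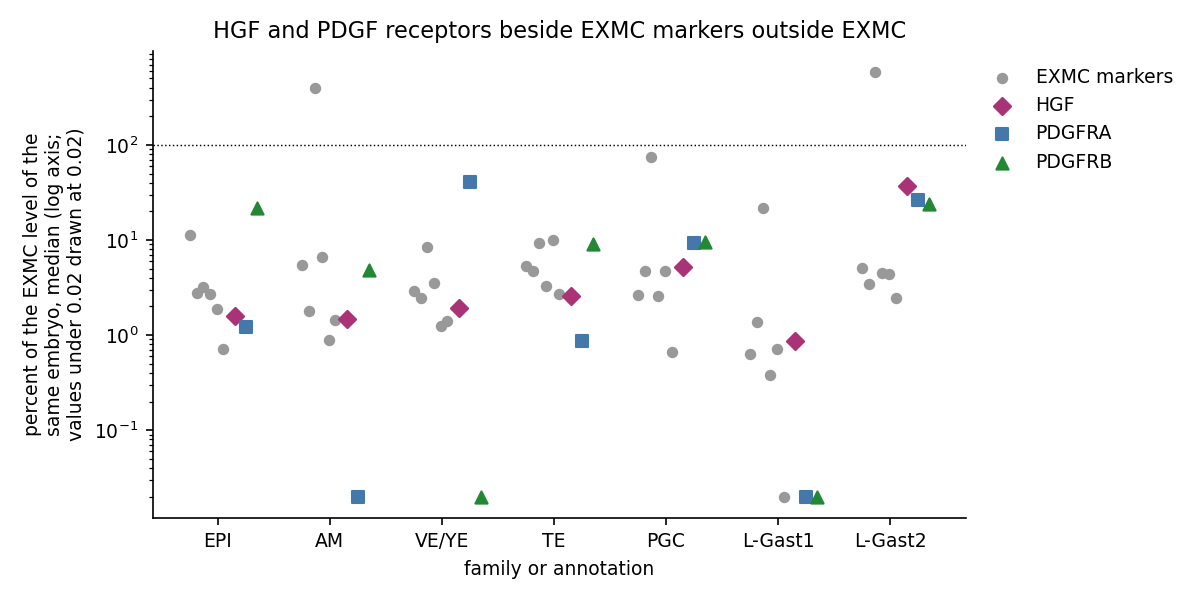
Levels of HGF, PDGFRA and PDGFRB outside EXMC as a percent of the EXMC level of the same embryo (median over embryos, log axis, dotted line at 100%), beside the 6 EXMC markers in grey. Values under 0.02% are drawn at 0.02%. HGF sat among the markers in EPI (1.58%), AM (1.47%) and VE/YE (1.94%), just under the lowest of them in TE (2.58% against 2.68%), and above 5 of the 6 markers in L-Gast2 (36.6%).

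The family result for Gast followed these cells. Gast exceeded EPI in HGF by 2.59 ± 0.68 log2 units (adjusted p = 0.0334) and in PDGFRA by 3.19 ± 0.85 (0.0313), 2 of the 6 genes in a comparison with 1.83% of genes called. In sums of at least 10 cells the adjusted p was 0.0719 and 0.153, and by limma on mean log2 values 0.136 and 0.162. Without day 16 the differences were 0.39 (adjusted p = 1) and -1.05 (adjusted p = 1). HGF lost its call without any 1 of 6 embryos (day 11 replicate 1, day 13 replicate 2 and the 4 of day 16, adjusted p 0.0508 to 0.277) and PDGFRA without any 1 of the 4 of day 16 (0.0807 to 0.227). Gast was below EXMC in PDGFRA by 2.99 ± 0.86 (adjusted p = 0.0231), which was lost without day 14 replicate 2 (0.0766) or 4 (0.0980) or day 16 replicate 1 (0.0648) or 4 (0.0868).

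L-AM2 had the highest mean MET level of the 12 annotations, 68.3 ± 62.4 CPM (n = 4, from 31.7 to 162), followed by E-AM at 35.8 ± 40.2 (n = 5) and TE and derivatives at 24.7 ± 24.6 (n = 16). L-AM1 stood at 18.2 ± 15.8 CPM (n = 3). In embryos with both annotations, L-AM2 and L-AM1 differed in MET by 1.78 ± 1.37 log2 units (adjusted p = 0.838) and in HGF by 1.13 ± 1.15 (0.882), in a comparison where 0.0882% of 6803 genes were called. L-AM2 held MET in 48.1% of 27 cells and L-AM1 in 27.3% of 22 cells, with exact 95% intervals of 28.7 to 68.1 and 10.7 to 50.2 that overlap.

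**Figure D4:**
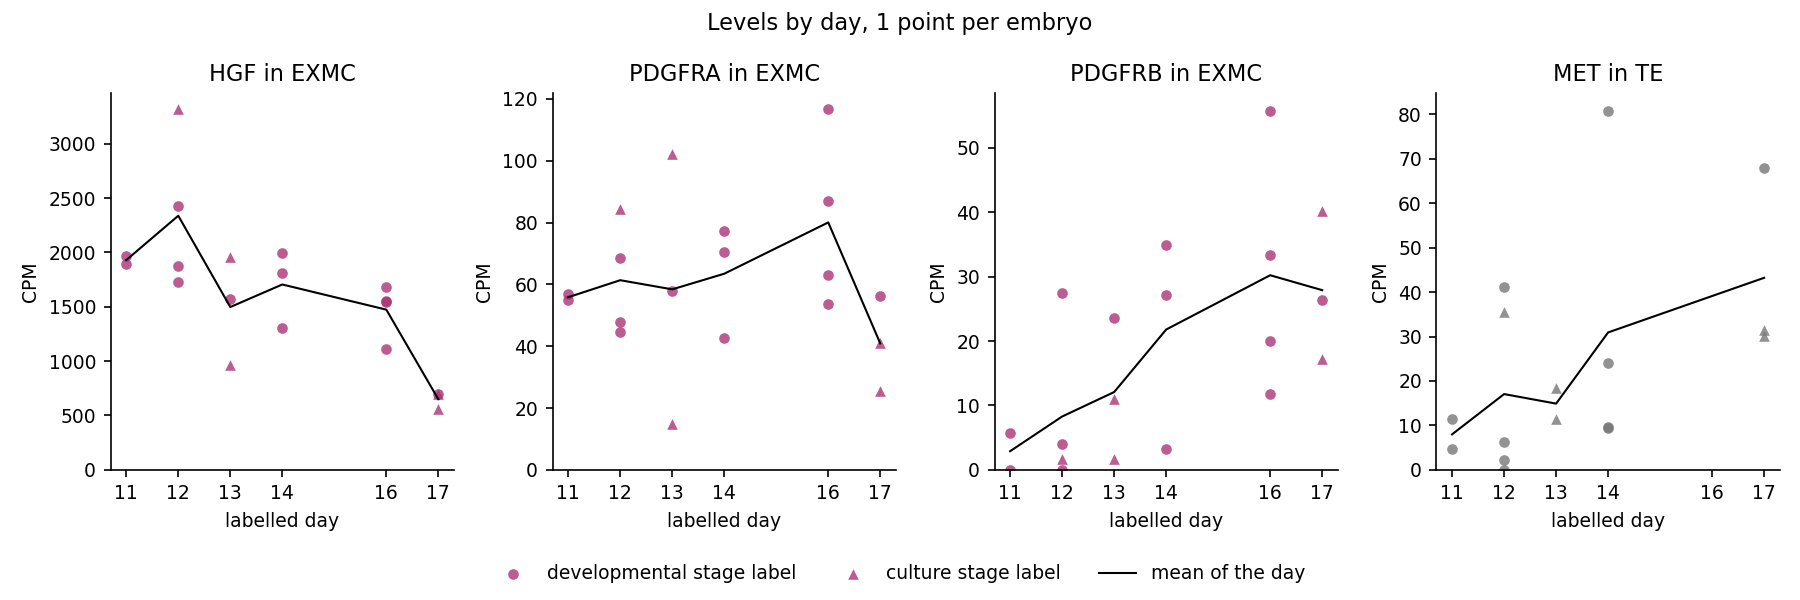
CPM of HGF, PDGFRA and PDGFRB in EXMC and of MET in TE by labelled day, 1 point per embryo, with circles for days under a developmental stage label, triangles for days under a culture stage label and a line through the mean of each day. HGF was lowest on day 17 (555 to 697 CPM), and PDGFRB was highest on day 16.

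With day, HGF in EXMC fell. Its mean was 1929 CPM on day 11 (n = 2), 2337 on day 12 (n = 4), 1497 on day 13 (n = 3), 1705 on day 14 (n = 3), 1473 on day 16 (n = 4) and 649 on day 17 (n = 3). The 3 embryos of day 17 stood at 555, 695 and 697 CPM, below all 16 earlier embryos, of which the lowest was 965. The slope was -0.24 ± 0.05 log2 units per day (adjusted p = 0.00267), the only call among the 4 of the 6 genes tested, where 11.8% of 11056 genes were called. It lay between -0.27 and -0.22 with any 1 embryo left out, and between -0.34 and -0.17 in the other analyses, all called. The share of EXMC cells with an HGF count was 96.2% or more on each day, too near its ceiling to follow the level.

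PDGFRB in EXMC had day means of 2.90, 8.28, 12.1, 21.8, 30.2 and 27.9 CPM on days 11, 12, 13, 14, 16 and 17, and the share of EXMC cells with a count went from 4.35% on day 11 to 48.1% on day 17 (5.00% and 32.0% after thinning). The slope of 0.42 ± 0.15 log2 units per day was not called (adjusted p = 0.0687). It was called by DESeq2 (0.0172), with the label type as a covariate (0.0416), by limma on mean log2 values (0.00278) and without day 12 replicate 5 (0.0258), whose 27.5 CPM stood far above the other 3 embryos of day 12. PDGFRA in EXMC had a slope of -0.03 ± 0.07 (adjusted p = 0.853), with day means between 40.9 and 80.0 CPM. Its share of EXMC cells went from 73.9% on day 11 to 46.2% on day 17, or 75.0% to 34.4% after thinning.

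In TE, no gene of the 4 tested was called with day, where 14.8% of 12205 genes were called. MET had day means of 7.99, 17.0, 14.9, 30.9 and 43.2 CPM on days 11, 12, 13, 14 and 17, with a slope of 0.36 ± 0.17 (adjusted p = 0.170; limma on mean log2 values 0.00562). PDGFRA in TE had a slope of 0.75 ± 0.29 (adjusted p = 0.0875), called by DESeq2 (0.00742) and without day 17 replicate 1 (0.0490), at levels between 0.136 and 6.75 CPM. In EPI, none of the 3 genes tested was called (3.81% of 11589 genes), and the same held for the 2 tested in VE/YE (0.145% of 7602 genes). The test of whether slopes differed between EPI, EXMC and TE called none of the 5 genes tested (8.33% of 12158 genes called), with the lowest adjusted p for PDGFRA at 0.0905 (0.0470 by DESeq2, 0.0261 with no filter on low counts, 0.0374 without day 13 replicate 1), while HGF went from 0.248 to 5.26e-10 with no filter.

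The other PDGF ligands had their own distribution. PDGFC, which acts on the alpha receptor, had mean levels of 54.3 ± 76.0 CPM in TE (n = 16) and 46.2 ± 23.1 in AM (n = 6), with medians of 27.5 and 52.3, since TE of day 17 replicate 3 stood at 318. These were followed by VE/YE (31.7 ± 27.5, n = 9), Gast (25.1 ± 16.5, n = 6) and EXMC (18.8 ± 21.8, n = 19). It was higher in TE than in EXMC by 1.29 ± 0.46 log2 units (adjusted p = 0.0265), and lower in EXMC than in AM by 2.05 ± 0.65 (0.0283) and than in VE/YE by 1.72 ± 0.63 (0.0458). The call for TE was lost without any 1 of 6 embryos (day 12 replicates 1 and 2, day 13 replicate 2, day 14 replicate 4, day 16 replicate 2 and day 17 replicate 3, adjusted p 0.0535 to 0.107). That for AM was lost without any 1 of 5 (day 12 replicates 1 and 2 and day 16 replicates 1, 2 and 3, 0.0544 to 0.119), and that for VE/YE without any 1 of 9 (day 11 replicate 1, day 12 replicates 1 and 5, day 13 replicate 3, day 14 replicate 4 and the 4 of day 16, 0.0504 to 0.212). PDGFD, a ligand of the beta receptor, was lower in EXMC than in EPI by 1.99 ± 0.74 log2 units (adjusted p = 0.0317), a call lost without day 12 replicate 2 (0.0651) or day 14 replicate 4 (0.0753) and at -0.89 (0.309) without the embryo block. Its largest mean stood in VE/YE at 12.4 ± 11.9 CPM (n = 9), against 9.57 ± 7.35 in EPI (n = 14). MST1 and MST1R, the relatives of HGF and MET, were low in all families, with no family mean above 4.82 CPM. By annotation, MST1R had a mean of 10.1 CPM in postE-EPI (n = 11), with a median of 5.38 and a highest sum of 50.9. MST1R was lower in EXMC than in EPI by 2.45 ± 0.74 (adjusted p = 0.00828), but not with developmental stage labels alone (0.108) or without the embryo block (0.0607).

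Transcripts of proteases that can activate HGF, and of their inhibitors, are given next. Of 5 tested of the 7 listed activating proteases, EXMC was higher than EPI in 3 and lower in 2, where 30.6% of all genes were called. PLAU, the urokinase that can cut HGF, was higher by 3.11 ± 0.59 log2 units (adjusted p = 4.75e-05) and HPN, hepsin, was lower by 3.00 ± 0.50 (2.24e-06). F2, the prothrombin gene, was higher in VE/YE than in EPI by 7.78 ± 0.89 (7.11e-10), and ST14, matriptase, was higher there by 3.30 ± 0.56 (5.83e-06). ST14 was also higher in TE than in EXMC, by 2.96 ± 0.44 (adjusted p = 1.38e-07). The call of F2 as higher in EXMC than in EPI (adjusted p = 0.0472) was lost without any 1 of 16 embryos (0.0513 to 0.223). Of 3 tested of the 4 listed protease inhibitors, all 3 were higher in TE than in EXMC, where 28.7% of all genes were called. SPINT1 and SPINT2, which block the HGF activators at the cell surface, were higher in TE by 3.58 ± 0.34 (adjusted p = 2.69e-13) and 1.75 ± 0.18 (8.84e-12). SPINT1 was also higher in AM than in EPI, by 2.41 ± 0.45 (0.000208), though not without day 16 (1.71, adjusted p = 0.225) or in sums of at least 10 cells (0.0559).

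Among 7 co-receptors and matrix partners, 5 were higher and 1 was lower in EXMC than in EPI, with a median log2 difference of 1.12 against -0.04 over all genes tested, of which 30.6% were called. NRP1, a co-receptor, was higher by 4.03 ± 0.43 (adjusted p = 2.57e-10), SPARC, a matrix protein that binds PDGF, by 3.12 ± 0.30 (2.12e-11) and CD44, a co-receptor of MET, by 2.07 ± 0.72 (0.0226). The CD44 call was lost without day 16 replicate 4 (0.098) or day 17 replicate 1 (0.0582). SPARC rose with day in EXMC by 0.37 ± 0.05 log2 units per day (1.37e-05) and in TE by 0.65 ± 0.08 (0.000148). Of 16 adaptors and effectors, 3 were called in EXMC against EPI, 2 higher and 1 lower, and 8 in TE against EPI, 7 higher and 1 lower, beside 30.6% and 41.8% of all genes called. In EXMC against EPI, the call of SRC as higher was lost without any 1 of 14 embryos (adjusted p 0.0512 to 0.107). That of CBL as lower was lost without any 1 of 2 (0.0606 to 0.0839). RASA1, a Ras GTPase-activating protein, was higher in TE than in EPI by 2.75 ± 0.38 (5.27e-08), and GAB1, the docking protein of MET, by 1.44 ± 0.35 (0.000632). Of 10 response genes, which many growth factors induce, 4 were higher and 1 lower in EXMC than in EPI, where 30.6% of all genes were called, with a median log2 difference of 0.71. FOS was higher by 2.82 ± 0.43 (1.33e-06) and JUNB by 2.45 ± 0.46 (2.16e-05), and ETV4 was lower by 2.24 ± 0.39 (4.75e-06). With day in EXMC, where 11.8% of all genes were called, 1 of 2 tested proteases rose and the other fell: PLAT, the tissue plasminogen activator, rose by 0.45 log2 units per day (standard error 0.08, adjusted p = 0.000741) and PLAU fell by 0.58 (standard error 0.13, adjusted p = 0.00681). Of the 10 response genes, 2 rose and 1 fell: JUNB by 0.28 ± 0.09 (0.0445) and EGR1 by 0.27 ± 0.08 (0.0355) upwards, and DUSP6, a phosphatase induced by ERK signalling, by 0.35 (standard error 0.11, adjusted p = 0.0454) downwards. These 3 calls were lost without any 1 of 10, 7 and 13 of the 19 embryos, in this order (adjusted p 0.0534 to 0.133, 0.0551 to 0.13 and 0.0545 to 0.096), with day 11 replicate 2, day 12 replicate 1 and day 17 replicates 2 and 3 among them each time.

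Across the 73 sums, HGF and PDGFRA moved together (Pearson's r of log2(CPM + 1) 0.73), as did HGF and PDGFRB (0.51) and PDGFRA and PDGFRB (0.35), while MET had r of -0.28 with HGF and -0.39 with PDGFRA. These are descriptions over sums that share embryos and families. The genes most like HGF were TEK (r = 0.91), COL6A3 (0.87) and COL6A1 (0.87). TEK is an angiopoietin receptor on the list of 7 endothelial markers. That list summed to 183 to 547 CPM in EXMC and 357 to 2054 in TE, against 18.9 to 245 over the other families. TEK itself gave a mean of 172 CPM in EXMC but 5.80 in TE. The other means in EXMC were 41.8 for KDR, 33.3 for PECAM1, 26.9 for EGFL7, 17.3 for CDH5, 1.51 for TIE1 and 0.0525 for CLDN5. In TE, PECAM1 (650) and CDH5 (418) were the largest. The part of endothelial cells was not tested. PDGFRA was most like NID2 (0.82) and BMP2 (0.81), and PDGFRB like A2M (0.68), EMP3 (0.68) and COL1A2 (0.67). MET was most like SLC44A2 (0.62), CA12 (0.62) and GRHL2 (0.56). PDGFA was most like WDTC1 (0.54), and PDGFB like RUNX3 (0.68), whose Spearman's rho was 0.24.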

How the data were processed

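Single cells of 21 embryos were profiled, and the authors deposited 1 table of raw counts per gene and cell with their own annotation of each cell. The unit, counts, was read from the whole-number values of the deposited table. Alignment with STAR is named in the submitters' processing notes, while for the genome build, counter and filters the labels and file headers name nothing. No source used here says whether reads were collapsed to molecules. Intervals of shares treat cells as independent although cells share embryos, so they cover counting error only. All per-sample columns were used.

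Genes were named as in the table. PDGFRB and PDGFD, stored as LOC101867161 and LOC101925936, were matched by gene ID to the RefSeq table of assembly T2T-MFA8v1.1, which gave 3273 of 16890 such identifiers a symbol. Coordinates and sequences were not used here.

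Counts were summed per embryo and family (at least 5 cells) or annotation (at least 3 cells). Families were compared with edgeR 4.0.16 (quasi-likelihood test, robust, TMM scaling, filterByExpr) in R 4.3.3, with the embryo as a block, and day was a number within a family. Benjamini-Hochberg adjusted p-values under 0.05 over all genes tested were called. All families shared 1 fit and 1 estimate of the spread. Standard errors were derived from the log2 difference and its F statistic. The annotation came from these same cells, so differences describe annotated types. Each embryo was its own replicate, and replicate numbers were given in accession order and pair nothing. Shares were also computed in cells thinned to 20000 counts, with shallower cells left out.

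Alternatives were DESeq2 1.42.0, limma 3.58.1 on mean log2(CPM + 1) over cells (pseudocount 1), no filter on low counts, library size without TMM, sums of at least 10 cells, developmental stage labels alone, leaving out day 16 or 1 embryo, no embryo block, and the label type as a covariate. Leave-one-out fits of the families kept the dispersion trend of all embryos. Those for PGC against EPI and TE against VE/YE were chosen after seeing the data. The scripts were tested on simulated data.

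The genes and lists were chosen with earlier results of these data known. Named in the text were the 6 genes in every comparison, their 4 relatives PDGFC, PDGFD, MST1 and MST1R, up to 3 called genes per list and comparison by size of the log2 difference, and the 3 genes most like each of the 6 by Pearson's r. Results for 2 genes that these rules or lists would name are not reported here.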

Additional observations from a re-analysis of the deposited data

Results flagged for a closer look

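Among embryos of the same family and day, 43 groups of 4 or 5 embryos were checked for an embryo far from the others, and 9 held one. The critical values used mark about 1 in 20 groups by chance where values vary smoothly, a rate that does not carry over to groups with most embryos at 0. MET stood apart in AM of day 16 replicate 4, at 75.8 CPM against a next highest of 33.3. It also stood apart in EXMC of day 12 replicate 2, at 10.1 CPM against 1.72, and in VE/YE of day 16 replicate 1, at 40.9 CPM against 2.21. PDGFRB stood apart in EXMC of day 12 replicate 5, at 27.5 CPM against 4.02, and in EPI of day 16 replicate 1, at 12.7 CPM against 2.37. In 4 groups 1 embryo held counts and all others were at 0. These were PDGFRB in VE/YE of day 16 replicate 1 (1.34 CPM) and in TE of day 12 replicate 1 (0.490 CPM), and PDGFB in VE/YE of day 16 replicate 1 (4.02 CPM) and in TE of day 12 replicate 2 (0.229 CPM). Of the 9, the embryo of day 16 replicate 1 gave 4.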

How the results depend on the processing

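Among values of single genes under the alternatives other than leaving out an embryo, 373 kept their direction and side of the threshold or moved within their spread, 56 moved further, 29 lost and 8 gained a call and 5 changed sign. The counts of genes called moved more, and the cause was not tested. AM against EPI called 1013 genes, but 1530 by DESeq2, 2279 by limma, 414 in sums of at least 10 cells, 623 with developmental stage labels alone and 179 without day 16. Gast against EPI called 298, but 654 by DESeq2, 539 by limma, 638 with no filter on low counts, 193 in sums of at least 10 cells, 456 with no embryo block and 0 by edgeR without day 16, where 632 had an unadjusted p under 0.05. EXMC against Gast called 1120, but 1765 by DESeq2, 1851 by limma, 1972 with no embryo block and 615 without day 16. EXMC against AM called 1790, but 754 in sums of at least 10 cells and 807 without day 16. In sums of at least 10 cells, VE/YE against EPI called 2021 in place of 4304 and EXMC against VE/YE 1150 in place of 3079. Day in EPI called 442, but 1033 by DESeq2, 881 by limma, 1232 with no filter and 143 without day 16. Day in EXMC called 1303, but 2732 with no filter, 670 in sums of at least 10 cells and 592 without day 16. Day in TE called 1802, but 530 in sums of at least 10 cells and 240 with developmental labels alone. Day in VE/YE called 11, but 153 by DESeq2, 676 by limma, 345 with no filter, 17 without TMM and 23 without day 16. Day by family called 1013, but 1667 by DESeq2, 1848 with no filter, 274 in sums of at least 10 cells and 224 with developmental labels alone. L-Gast2 against L-Gast1 called 151, but 334 by DESeq2, 233 with no filter and 94 with no embryo block, and L-AM2 against L-AM1 called 6, but 200 by DESeq2 and 83 with no filter.

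With 1 embryo left out, the counts ranged from 528 to 1089 for AM against EPI, 130 to 354 for Gast against EPI, 658 to 1155 for EXMC against Gast, 1339 to 1802 for EXMC against AM, 4481 to 5275 for EXMC against EPI, 4210 to 5005 for EXMC against TE, 2526 to 3104 for EXMC against VE/YE, 6136 to 7318 for TE against EPI and 3614 to 4439 for VE/YE against EPI. They ranged from 9189 to 10184 over all families, 278 to 502 for day in EPI, 960 to 1394 in EXMC, 1052 to 1892 in TE, 599 to 1070 for day by family, 34 to 223 for L-Gast2 against L-Gast1 and 22 to 108 for L-AM2 against L-AM1. Day in VE/YE ranged from 0 to 123, with 571 to 613 genes at an unadjusted p under 0.05 in the 3 edgeR fits that called none.

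Signs changed for PDGFRA in Gast against EPI without day 16 (-1.05 log2 units) and for slopes with day that were not called: PDGFRA in EXMC with developmental labels alone (0.052) and without day 17 replicate 1 (0.0046, from -0.074 over the embryos left out), PDGFA in TE in sums of at least 10 cells (-0.046) and without day 17 replicate 3 (-0.070, up to 0.21), PDGFA in EXMC without day 11 replicate 1 (0.15, from -0.28), and HGF in VE/YE without day 16 (0.17), by limma (0.10) and without day 13 replicate 3 (0.32, from -0.34) or day 17 replicate 3 (0.03). HGF in L-AM2 against L-AM1 changed sign without day 16 replicate 3 (-0.12, up to 2.45). Low counts limit PDGFB, PDGFA and PDGFRB most. Day in VE/YE in sums of at least 10 cells could not be fitted, and PGC has no sums without day 16. Alternatives for the other 10 family pairs were not run. Families were paired by embryo, and the values with no embryo block are those given above; replicate numbers across days pair nothing.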
